A study of Homo sapiens
Mus musculus and Homo sapiens with 21 samples.

Results

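In subcutaneous tumours of H2030-BrM3 cells, 10 mouse marker genes of tissue around the injection site were followed, out of 33043 mouse genes measured. H2030-BrM3 is a human lung adenocarcinoma line selected for growth in brain, so mouse transcripts in its tumours come from the host. The genes were found by their symbols. 4 mark epidermis (Krt5, Krt14, Krt10 and Krt1), 3 mark skeletal muscle (Acta1, Ckm and Myh4) and 3 mark fat (Adipoq, Fabp4 and Plin1). They were chosen by their levels in the subcutaneous libraries, which were high against brain metastases and uneven between libraries. The levels in those groups are therefore given below as a description, with no test.

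The groups used were subcutaneous tumours (4 libraries, SQ Rep 1 to 4), forebrain metastases (FBMet, 3 libraries), hindbrain metastases (HBMet, 3 libraries), tumour-free forebrain (FB, 4 libraries) and tumour-free hindbrain (HB, 4 libraries), with a monolayer of the same cells (3 libraries) as a check on cross-species reads. All hosts were athymic nu/nu mice, 5 to 6 weeks old when they received the cells. Cells were put into the heart for brain metastases and under the skin, mixed with Matrigel, for subcutaneous tumours. Tumours were cut out by eye together with stroma around them and frozen, and the labels name no drug and no second genotype. H2030-BrM3 stands as the cell line on the labels of the tumour-free regions too. The labels do not tie a library to an animal, so p-values measure the spread between these libraries.

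Skin of the mouse is layered over a fat layer and a thin sheet of skeletal muscle, the panniculus carnosus, and a subcutaneous tumour grows against these layers. Basal keratinocytes make the keratin pair Krt5 and Krt14, and as they move outward they switch to the pair Krt1 and Krt10. Athymic nu/nu mice carry a Foxn1 mutation and form abnormal hair. Contracting muscle fibres are rich in sarcomere proteins and in enzymes that buffer ATP, and fat cells in lipid droplet proteins and secreted adipokines.

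Levels are RPKM (reads normalised to the length of a transcript and to the mapped reads of its library) rescaled so that mouse genes sum to 1000000 in each library. Mouse reads numbered 3982107, 3790844, 2446513 and 3947737 in SQ Rep 1 to 4, which was 11.3, 12.2, 4.84 and 9.29% of all reads of those libraries. FBMet and HBMet held 52358082 to 86139353 mouse reads, and FB and HB held 17747167 to 23034782. SQ Rep 3 was thus the shallowest library for mouse genes and had the smallest mouse share. The 12 brain cell genes examined, Mbp and Slc1a2 among them, summed to 123, 76.6, 48.4 and 54.9 in SQ Rep 1 to 4 and to between 16255 and 26352 in the metastases, so brain markers were near the low end in SQ.

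All 4 epidermal keratins were abundant in SQ Rep 1, 2 and 4 and nearly missing from SQ Rep 3. Krt5, the type II keratin of basal cells, stood at 352, 252, 0.195 and 357 in SQ Rep 1, 2, 3 and 4. Those levels rest on 2673, 1826, 1 and 2692 reads. The 3 other libraries therefore lay close together, with the highest 1.42 times the lowest of them, and SQ Rep 3 held a single Krt5 read. The ratio of SQ Rep 4 to SQ Rep 3 was 1834, with a 95% interval from counting error alone of 329 to 72487. In a bulk library fewer cells of a type and less RNA per cell cannot be told apart.

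Krt14, the type I partner of Krt5, stood at 487, 383, 0 and 445 in SQ Rep 1, 2, 3 and 4, from 2386, 1788, 0 and 2161 reads. SQ Rep 1 was at least 538-fold higher than SQ Rep 3, taking 3 reads as the floor of that library. Again 3 libraries agreed to within a factor of 1.27 and SQ Rep 3 stood alone. For comparison, Krt14 was at 0.0173, 0 and 0.0133 in FBMet and at 0.0881, 0.0537 and 0.0306 in HBMet. Krt5 had 3 reads in the 6 metastasis libraries together and Krt14 had 15.

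Krt10, the type I keratin of cells that have left the basal layer, was the most abundant of the 10 genes. It reached 1043, 1674, 1.61 and 2147 in SQ Rep 1, 2, 3 and 4, from 4799, 7353, 5 and 9796 reads. In the metastases it was at 7.43, 9.49 and 10.4 in FBMet and at 4.63, 4.31 and 4.25 in HBMet. SQ Rep 3 therefore lay below every metastasis library, while the other SQ libraries lay above all of them.

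Krt1, the type II partner of Krt10, followed with 435, 887, 0.349 and 558 in SQ Rep 1, 2, 3 and 4, from 3695, 7186, 2 and 4696 reads. It stood at 1.18, 1.16 and 1.21 in FBMet and at 1.96, 1.67 and 2.19 in HBMet, so SQ Rep 3 was again the lowest of the 10 libraries. Its 2 reads are too few to place it firmly below FBMet. The suprabasal pair spread more among the 3 keratin-rich libraries than the basal pair did. The highest of those libraries exceeded the lowest by 2.06 for Krt10 and by 2.04 for Krt1.

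**Figure D1:**
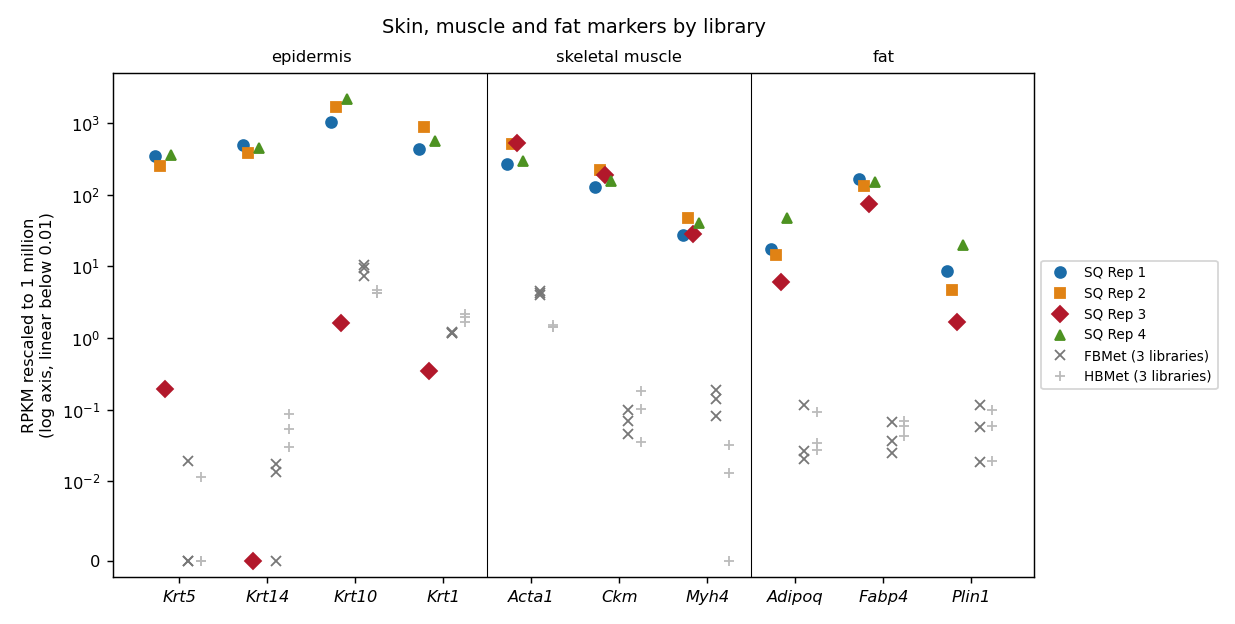
Rescaled RPKM of the 10 genes on the vertical axis (log scale, linear below 0.01), with 1 coloured symbol for each SQ library and grey symbols for the 3 FBMet and 3 HBMet libraries. SQ Rep 3 drops to 0 to 1.61 for the 4 keratins and stays between 28.5 and 518 for the 3 muscle genes.

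The 3 muscle genes were high in every SQ library, SQ Rep 3 included. Acta1, the actin of skeletal muscle thin filaments, stood at 264, 506, 518 and 292 in SQ Rep 1, 2, 3 and 4, from 1314, 2402, 1742 and 1443 reads. In the metastases Acta1 was at 4.22, 4.02 and 4.47 in FBMet and at 1.44, 1.41 and 1.53 in HBMet. SQ Rep 3 held the highest Acta1 level and SQ Rep 1 the lowest, a ratio of 1.96 (95% counting interval 1.82 to 2.11), and all SQ libraries lay above all metastases.

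Ckm, the creatine kinase of muscle, stood at 127, 221, 187 and 157 in SQ Rep 1, 2, 3 and 4, from 545, 905, 543 and 666 reads. It was at 0.0987, 0.0691 and 0.0457 in FBMet and at 0.101, 0.184 and 0.0349 in HBMet. SQ Rep 2 was highest, except that median-of-ratios scaling put SQ Rep 3 first for Ckm, at 223 against 207 in SQ Rep 2.

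Myh4, the heavy chain of the fastest myosin, stood at 27.0, 46.9, 28.5 and 40.6 in SQ Rep 1, 2, 3 and 4, from 560, 926, 398 and 833 reads. It was at 0.143, 0.0823 and 0.189 in FBMet and at 0.0130, 0 and 0.0325 in HBMet. The ratio of the highest to the lowest SQ library was 1.74 for Ckm and 1.73 for Myh4. Muscle was thus the tissue whose markers varied least between SQ libraries, and SQ Rep 1 was the lowest for all 3 genes.

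The 3 fat genes were present in every SQ library, each lowest in SQ Rep 3. Adipoq, which encodes the adipokine adiponectin, stood at 17.3, 14.5, 6.05 and 47.9 in SQ Rep 1, 2, 3 and 4, from 55, 44, 13 and 151 reads. Plin1, the perilipin that coats fat cell lipid droplets, stood at 8.68, 4.66, 1.65 and 19.98, from 39, 20, 5 and 89 reads. Both were highest in SQ Rep 4, by 7.91 over SQ Rep 3 for Adipoq (95% counting interval 4.49 to 15.2) and by 12.1 for Plin1 (5.01 to 38.3).

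Fabp4, a fatty acid carrier of fat cells that endothelial cells and macrophages also make, stood at 164, 132, 74.2 and 148 in SQ Rep 1, 2, 3 and 4, from 1462, 1120, 446 and 1305 reads. It spanned only a factor of 2.21, and SQ Rep 1 held its highest level. In the metastases the 3 fat genes were near 0, with 0.0205 to 0.117 for Adipoq, 0.0250 to 0.0690 for Fabp4 and 0.0188 to 0.115 for Plin1. Each SQ library exceeded every metastasis library for each fat gene.

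Averaged over the 4 SQ libraries, the order of levels was Krt10 (1216 ± 928), Krt1 (470.1 ± 367), Acta1 (395 ± 136), Krt14 (329 ± 223), Krt5 (240.1 ± 167), Ckm (173 ± 40.4), Fabp4 (129.5 ± 39.2), Myh4 (35.7 ± 9.59), Adipoq (21.4 ± 18.3) and Plin1 (8.74 ± 8.03; SD, n = 4). Among neighbours in that order, only Fabp4 and Myh4 had SQ ranges that did not overlap. The SD of a keratin was 67.9 to 78.0% of its mean, with SQ Rep 3 the low library each time. Each keratin mean thus mixes keratin-rich libraries with SQ Rep 3, where keratins were nearly missing.

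Against the metastases, 7 of the 10 genes did not overlap between SQ and the 6 metastasis libraries, and of 16814 genes 25.8% did so with SQ higher and 39.8% with SQ lower. Those shares are printed as background only, because this contrast chose the genes. Krt14, Krt10 and Krt1 overlapped, each through SQ Rep 3 alone. Krt5 did not overlap, but in SQ Rep 3 that rests on 1 read. In that shallow library 1 read equals 0.195, whereas the highest Krt5 level in the deeper metastasis libraries was 0.0195, from 2 reads. A single read cannot tell Krt5 in SQ Rep 3 from the keratins that overlapped. On the log2(value + 1) scale the mean difference, SQ minus metastasis, was 6.29 for Krt5, 6.53 for Krt14, 5.42 for Krt10 and 5.69 for Krt1. It was 6.72 for Acta1, 7.29 for Ckm and 5.06 for Myh4, and 4.07 for Adipoq, 6.90 for Fabp4 and 2.81 for Plin1. The median over all 16814 genes was -0.26. All 10 genes entered that fit, 7 of them only through the SQ libraries.

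Ratios between markers of 1 tissue were taken within each SQ library. Krt5 over Krt14, both of the basal layer, was 0.721, 0.658 and 0.802 in SQ Rep 1, 2 and 4, a narrow range. Krt10 over Krt14, a suprabasal gene over a basal one, was 2.14 in SQ Rep 1 against 4.37 in SQ Rep 2 and 4.82 in SQ Rep 4. Krt1 over Krt10 was 0.417, 0.530 and 0.260 in the same libraries. With 0 to 5 reads for each keratin, SQ Rep 3 gives no usable ratio.

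In muscle, Ckm over Acta1 was 0.481, 0.437, 0.362 and 0.536 in SQ Rep 1, 2, 3 and 4. Myh4 over Acta1 was 0.102, 0.0926, 0.0549 and 0.139, lowest in SQ Rep 3. In fat, Fabp4 over Adipoq was 9.49, 9.09 and 12.3 in SQ Rep 1, 2 and 3 and 3.09 in SQ Rep 4, where Adipoq was highest. Plin1 over Adipoq stayed between 0.272 and 0.502 in the 4 libraries.

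**Figure D2:**
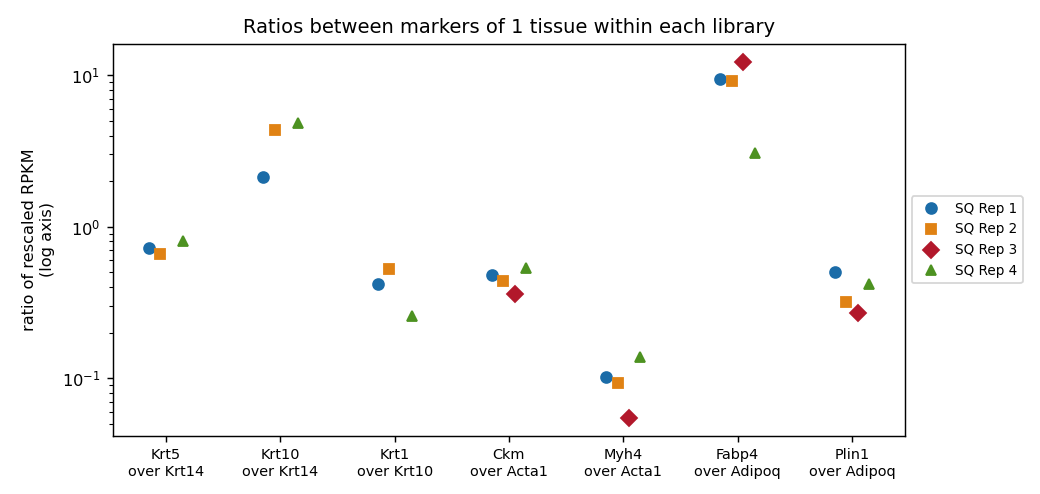
Ratio of the rescaled RPKM of a pair of markers of 1 tissue within each SQ library, on a log axis, with 1 symbol for each library. SQ Rep 3 is not drawn for the 3 keratin ratios, which rest on 0 to 5 reads there, and Fabp4 over Adipoq is 3.09 in SQ Rep 4 against 9.09 to 12.3 in the others.

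A longer list of epidermal genes had the same shape as the 4 keratins. Krtdap, a protein secreted by maturing keratinocytes, stood at 1241, 1315, 2.47 and 1617 in SQ Rep 1, 2, 3 and 4. Lgals7, the keratinocyte lectin galectin-7, stood at 1001, 870 and 664 in SQ Rep 1, 2 and 4 and at 2.06 in SQ Rep 3. Sbsn and Dmkn, secreted proteins of upper epidermis, kept more signal in SQ Rep 3, at 22.7 for Sbsn against 326 to 749 in the other SQ libraries, and at 18.6 for Dmkn against 350.1 to 682. All 26 list genes with a mean of at least 1 were lowest in SQ Rep 3, and the list summed to 5231, 5108, 51.9 and 6699.8 in SQ Rep 1, 2, 3 and 4, against 19.5 to 25.9 in the metastases.

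In limma, at an adjusted p under 0.05, 80.7% of 16814 genes were called between SQ and metastases, 33.5% as higher and 47.1% as lower in SQ. Genes that pass the filter on low values only through the SQ libraries were favoured by that choice to be called higher in SQ. The lists were also chosen with earlier results of this contrast known. Counts over the lists, and adjusted p-values of their genes in this contrast, are therefore a description. Of 26 epidermis list genes tested, 25 were called higher, but 18 of the 26 passed the filter only through SQ. Of the 8 that pass on the metastases alone, 7 were called higher and 0 lower. Krtdap stood at 0 to 0.563 in the metastases and Dmkn at 0.925 to 1.56. Itgb4, an integrin of the basal cell anchor named after its value was seen, did not pass, at 4.53 ± 3.06 in SQ and 7.65 ± 3.79 in metastases (SD, n = 4 and 6, adjusted p = 0.0738). The count depends on SQ Rep 1, 2 and 4: without any 1 of them 12 list genes passed the filter on low values, of which 10, 10 and 11 were higher, and without SQ Rep 3 it was 25 of 26.

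Hair follicle genes were uneven in another way, with most of their signal in SQ Rep 1. Krt71, a keratin of the inner root sheath that encloses the growing hair, stood at 818, 74.4, 0.195 and 26.7 in SQ Rep 1, 2, 3 and 4. Krt27, of the same sheath, stood at 535, 38.0, 0 and 11.8. Krt25 and Tchh, the sheath protein trichohyalin, had the same order of libraries, at 527 and 519 in SQ Rep 1. Of 22 hair and sebaceous gland genes with a mean of at least 1, 20 were highest in SQ Rep 1 and 22 lowest in SQ Rep 3, where the whole list had 6 reads.

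The hair and sebaceous list summed to 3425, 281, 1.13 and 147 in SQ Rep 1, 2, 3 and 4, against 81.4 to 101 in FBMet and 13.9 to 15.2 in HBMet. The epidermis list, in contrast, was of like size in SQ Rep 1, 2 and 4. In limma 13 of the 16 list genes tested were called higher in SQ and 1 lower, where 80.7% of all genes were called, and 13 of the 16 passed the filter only through SQ. Of the 3 that pass on the metastases alone, 1 was called higher and 1 lower. The lower one was Lhx2, a transcription factor that forebrain also uses, at 5.92 ± 4.90 in SQ and 46.7 ± 43.8 in metastases (SD, adjusted p = 0.0046). That metastasis mean pools 2 regions that differ, since the whole list, Lhx2 included, summed to 13.9 to 15.2 in HBMet. Whether Lhx2 was lower in SQ than in HBMet alone was not tested. Without SQ Rep 1 the count was 1 of 5 genes tested, without SQ Rep 2 it was 1 of 5 and without SQ Rep 4 it was 2 of 4, while without SQ Rep 3 it was 13 of 16.

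**Figure D3:**
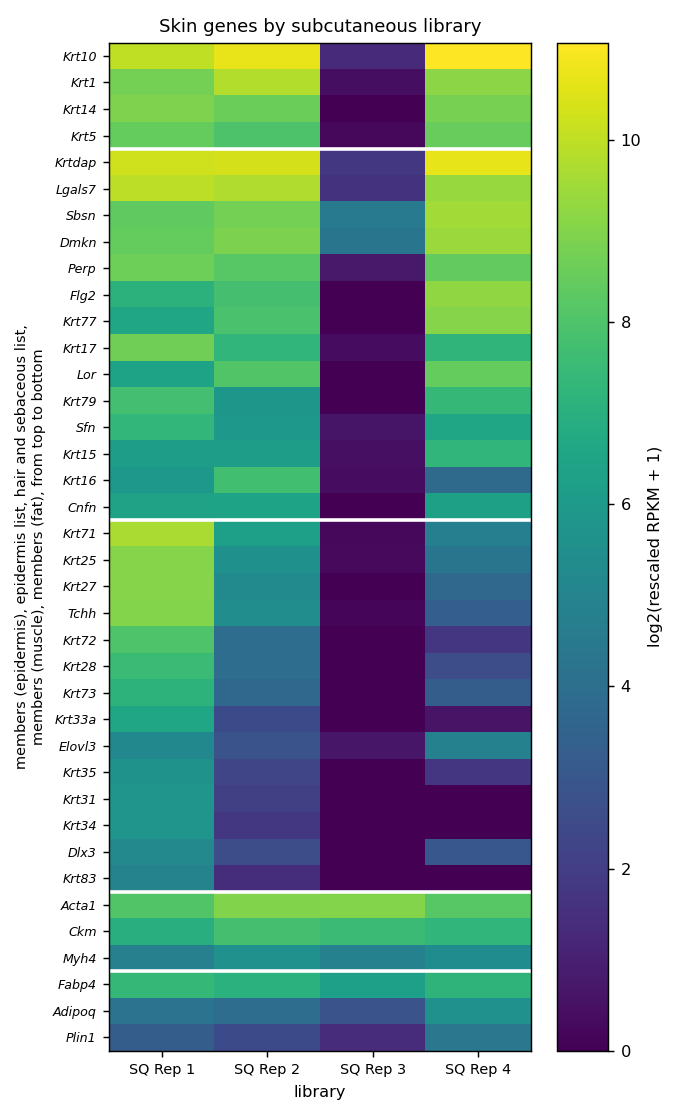
Each row is a gene and each column an SQ library, with colour for log2(rescaled RPKM + 1). From top to bottom the blocks are the 4 keratins, 14 epidermis list genes, 14 hair and sebaceous list genes, the 3 muscle genes and the 3 fat genes. The SQ Rep 3 column is dark over most rows of the skin blocks, with Sbsn and Dmkn lighter. It is lighter at the muscle genes and dark again at Plin1 (1.65).

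Fast skeletal muscle genes were present in every SQ library. Mylpf, the light chain of fast myosin, stood at 354, 698, 597 and 383 in SQ Rep 1, 2, 3 and 4. Tnnt3, the fast fibre troponin T, stood at 133, 279, 202 and 162, and Tnnc2, the fast troponin C, at 102, 203, 123 and 143. The list of 31 genes summed to 1233, 2391, 1836 and 1603 in SQ Rep 1, 2, 3 and 4, against 122 to 138 in FBMet and 666 to 700.4 in HBMet, and 26 of its genes were highest in SQ Rep 2 and 25 lowest in SQ Rep 1.

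In limma 27 of the 31 muscle list genes were called higher in SQ and 3 lower, against 80.7% of all genes called, and 17 of the 31 passed the filter only through SQ. Of the 14 that pass on the metastases alone, 10 were called higher and 3 lower. Mylpf stood at 1.49 to 2.64 in the metastases. Myl1, another fast light chain, averaged 156 ± 47.9 in SQ and 0.932 ± 0.921 in metastases (SD, n = 4 and 6). The 3 lower genes were Jph1, Pvalb and Pygm, named after their values were seen. Jph1, which ties the muscle cell's membrane to its calcium store, was at 1.54 ± 0.52 in SQ and 11.0 ± 0.915 in metastases. Pvalb, a calcium buffer of fast fibres and of some neurons, was at 76.5 ± 35.4 in SQ and 290 ± 269 in metastases (SD, n = 4 and 6). That metastasis mean pools 2 regions that differ. The whole list, Pvalb included, summed to 122 to 138 in FBMet and to 666 to 700.4 in HBMet. Whether Pvalb was lower in SQ than in each region alone was not tested.

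Slow fibre genes were much weaker. Tnnt1, the slow troponin T, stood at 4.99, 4.02, 10.2 and 12.8 in SQ Rep 1, 2, 3 and 4, and Myh7, the slow myosin heavy chain, had 1 read in the 4 libraries together. Of 6 slow fibre genes tested, Myoz2 was called higher in SQ, and Myh7 and Myl2 lower, where 33.5% of all genes were called higher and 47.1% lower. Of the 5 that pass on the metastases alone, 0 were called higher and 2 lower. Genes of muscle stem cells and regeneration summed to 1.14, 2.60, 8.03 and 1.93, and none of them passed the filter for testing. Within that list Myog, a factor that starts fibre formation, stood at 0, 1.21, 3.99 and 0.389, and Myh8, a myosin of newborn muscle, at 0.554, 0.581, 3.38 and 1.26, both highest in SQ Rep 3.

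Genes of the adipocyte list went both ways against metastases, and most were highest in SQ Rep 4. Car3, a carbonic anhydrase abundant in fat and muscle, stood at 125, 196, 111 and 258 in SQ Rep 1, 2, 3 and 4, against at most 1.00 in the metastases. Fasn, fatty acid synthase, stood at 239.97, 166, 90.3 and 296, against 474 to 570 in the metastases. Of 24 list genes with a mean of at least 1, 20 were highest in SQ Rep 4 and 22 lowest in SQ Rep 3. The list summed to 1418, 1283, 786 and 1958 in SQ Rep 1, 2, 3 and 4, against 999.7 to 1085 in the metastases.

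In limma 15 of the 23 adipocyte list genes tested were called higher in SQ and 4 lower. Of all genes 80.7% were called, 33.5% as higher and 47.1% as lower, so the share called in either direction was near that of all genes and the split was not. Of these 23, 8 passed the filter only through SQ, and of the 15 that pass on the metastases alone 7 were called higher and 4 lower. Lpl, the lipase that frees fatty acids from lipoproteins, was higher by 3.06 on the log2 scale (SE 0.16, adjusted p = 3.4e-08), at 135 ± 27.5 in SQ and 20.8 ± 16.8 in metastases (SD, n = 4 and 6). Fasn was lower by 1.55 on the log2 scale, at 198 ± 89.6 in SQ and 531 ± 34.0 in metastases, and Gpd1, Thrsp and Rbp4, named after their values were seen, were lower too. Of 5 brown fat genes tested, 2 were called higher and 2 lower, beside the 33.5% and 47.1% of all genes. Ucp1, the defining gene of brown fat, was at 0.261 in SQ Rep 3 and had no read in the other SQ libraries.

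**Figure D4:**
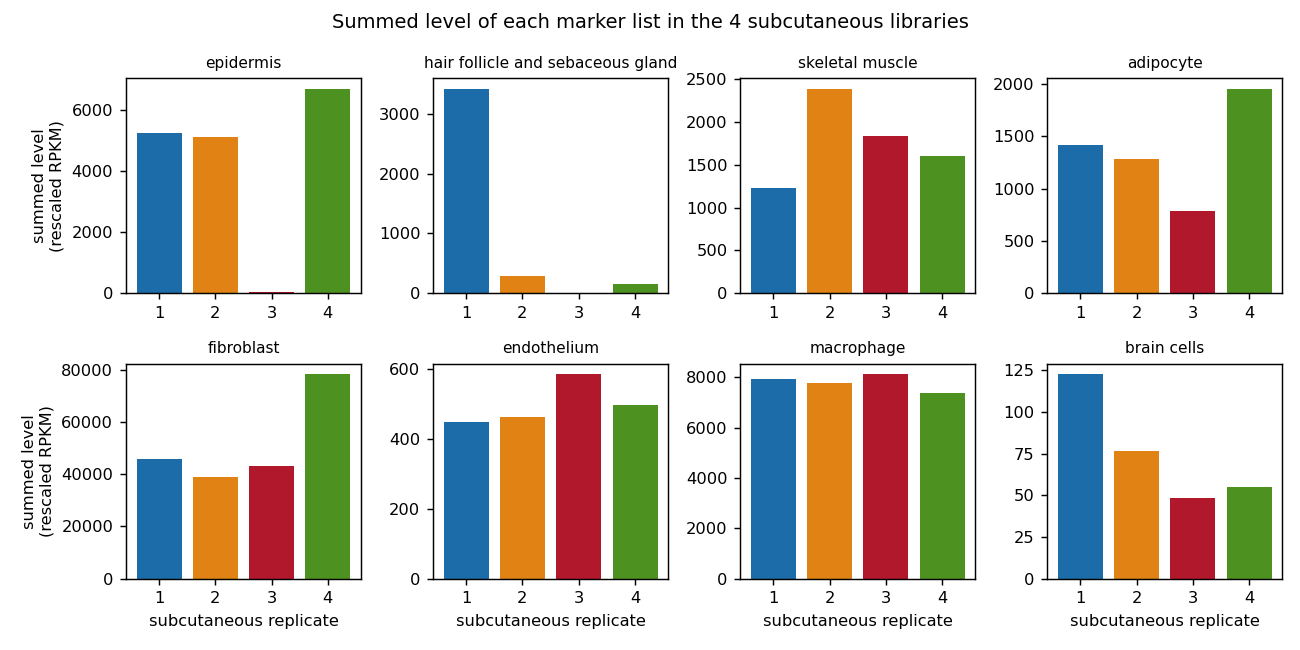
Bars give the summed rescaled RPKM of each marker list in SQ Rep 1 to 4, each panel with its own axis from 0. The epidermis bar is 51.9 in SQ Rep 3 against 5108 to 6699.8 in the others, the hair bar is 3425 in SQ Rep 1, and the macrophage bars lie between 7380.1 and 8111.

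The summed levels of other host cell lists in SQ Rep 3 were of the size seen in the other SQ libraries. The fibroblast list, led by the collagen genes Col1a1 and Col3a1, summed to 45912, 38760.1, 43089.7 and 78214 in SQ Rep 1, 2, 3 and 4, and 7 of its 12 genes were lowest in SQ Rep 3 and 10 highest in SQ Rep 4. The macrophage list, led by Lyz2, summed to 7919, 7753, 8111 and 7380.1. The endothelial list, led by Cdh5, summed to 447, 462, 584 and 496, and 9 of its 11 genes were highest in SQ Rep 3. The smooth muscle list, led by Acta2, summed to 446, 382, 325 and 402, with 4 of 6 genes lowest in SQ Rep 3. Whether the share of fibroblast RNA, highest in SQ Rep 4 as were Adipoq and Plin1, has a part in the fat values was not tested.

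In SQ Rep 3, the shallowest library for mouse genes, a level of 0.584 would have given 3 Krt5 reads, whereas the other SQ libraries stood at 252 or above. The same library gave 1742 reads of Acta1. The part of its lower mouse share in the keratin levels was not tested. SQ Rep 3 was also lowest for each keratin under median-of-ratios scaling, with skin, muscle and fat genes left out of the scaling, and after subtraction of cross-species reads. These settings could hardly have changed that order. Median-of-ratios scaling moved Krt5 in SQ Rep 3 only from 0.195 to 0.231, and subtraction can only lower a level (to 0.0319). They are therefore a description and no check of the low keratin levels.

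Mouse reads counted in the monolayer, which holds no mouse tissue, give a rate at which human RNA is assigned to a mouse gene. There were 0 to 2 such reads of each gene in a library and none of Ckm, Myh4, Adipoq, Fabp4 or Plin1, so the rate rests on very few reads. Scaled by that rate, human RNA would give at most 0.0548% of the SQ reads of any of the 10 genes. In SQ Rep 3 it would give 0.836 Krt5 reads where 1 was counted, 0.418 Krt14 reads where 0 were counted, 2.51 Krt10 reads where 5 were counted and 1.67 Krt1 reads where 2 were counted. The part of human RNA in these few reads was not tested.

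The human table gives the levels of the same genes as assigned to human sequence. Mouse RNA can be assigned there too, and the tumour-free libraries held 3325 to 5753 human reads. Each SQ library held 1314 to 2402 mouse reads of Acta1 and 446 to 1462 of Fabp4. The part of mouse RNA in the few human reads below was not tested. Human KRT14 had 0, 0, 1 and 0 reads and KRT5 had 3, 0, 4 and 5 in SQ Rep 1, 2, 3 and 4. KRT10 stood at 5.63, 6.21, 4.97 and 4.87 rescaled human RPKM in SQ against 5.61, 4.94 and 4.75 in the monolayer, and SQ Rep 3 did not stand apart in it. ACTA1 had 5, 6, 11 and 17 reads in SQ Rep 1, 2, 3 and 4, against 1, 0 and 2 in the monolayer. CKM and MYH4 had 0 to 1 read in each SQ library. PLIN1 had 9, 21, 33 and 21 reads in SQ, against 39, 23 and 34 in the monolayer, and FABP4 had 3, 1, 2 and 1 in SQ, against 0 in each monolayer library. ADIPOQ had 0 reads in the 4 SQ libraries, which allows up to 3 reads in each, and the human KRT1 row was not analysed here.

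Genes whose profile over the 4 SQ libraries lay nearest to that of 1 marker per tissue were sought by Euclidean distance on centred log2(value + 1). With 2297 candidates and only 4 libraries, nearness is a description. Nearest to Krt14 were Calm4 (distance 0.316), Krtdap (0.406), Fam25c (0.443), Lgals7 (0.743) and Perp (0.960). Calm4, a calmodulin-like protein, stood at 492, 495, 0 and 532 in SQ Rep 1, 2, 3 and 4. Of the 50 nearest genes, 15 were on the epidermis list and 0 on the hair list.

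Nearest to Acta1 were E230029C05Rik (0.186), Slfn4 (0.193), Havcr2 (0.200), Hspb7 (0.229) and Samsn1 (0.243). Only 4 of its 50 nearest genes were on the muscle list. Acta1 itself spans 0.97 on the log2 scale over the SQ libraries, less than the range of 1 asked of the candidates. Nearest to Adipoq were Cfd (0.168), Ces1d (0.179), Ppp2r2c (0.264), Cidec (0.277) and Calcb (0.322). Cfd, the secreted fat cell protease adipsin, stood at 68.3, 49.4, 24.5 and 165.5 in SQ Rep 1, 2, 3 and 4. Cidec, which enlarges lipid droplets, stood at 15.8 in SQ Rep 2, 6.17 in SQ Rep 3 and 61.2 in SQ Rep 4.

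Tumour-free brain was not used to choose the genes, and 3 of the 10 (Krt10, Krt1 and Acta1) were high enough in brain to be tested there. In limma Krt1 was lower in FBMet than in FB, the only 1 of the 3 to be called, where 30.4% of 15777 genes were called. It stood at 1.18, 1.16 and 1.21 in FBMet, against 2.39, 2.09, 1.89 and 2.67 in FB. The groups did not overlap, and the change on the log2(value + 1) scale was -0.57 (SE 0.11, adjusted p = 0.00208). Over the alternatives the change was -0.879 to -0.513, with an adjusted p of 0.00111 to 0.0138. At levels this low the added 1 shrinks log2 changes, those of Acta1 in brain included. Krt10 averaged 9.10 ± 1.51 in FBMet and 7.61 ± 1.37 in FB (SD, n = 3 and 4, limma adjusted p = 0.196).

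Acta1 stood at 4.22, 4.02 and 4.47 in FBMet, against 4.23, 5.47, 6.51 and 6.47 in FB. The log2 change of -0.33 (SE 0.14) did not pass limma (adjusted p = 0.0812), and it passed only without FB Rep 1 (adjusted p = 0.0169). In hindbrain, where 3.25% of genes were called (2.92% higher and 0.33% lower), none of the 3 genes passed limma or voom, and 1 of them (Acta1) had an unadjusted p under 0.05. Acta1 averaged 1.46 ± 0.0649 in HBMet and 2.38 ± 0.516 in HB (log2 change -0.45, adjusted p = 0.121). Krt1 averaged 1.94 ± 0.258 in HBMet and 2.05 ± 0.263 in HB (log2 change -0.05, 95% interval -0.29 to 0.18, adjusted p = 0.878), and Krt10 averaged 4.39 ± 0.206 in HBMet and 3.90 ± 0.444 in HB (adjusted p = 0.664).

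The change of Krt1 in forebrain minus that in hindbrain was -0.52 on the log2 scale (SE 0.16), with a limma adjusted p of 0.108, so a difference between regions was not called. With the replicate number as a block, added after the data were seen, it was 0.129 over all libraries and 0.127 for the metastasis pairs alone. For Krt10 the adjusted p of that difference was 0.840 and for Acta1 0.804. The other 7 genes had 0 to 21 reads in each tumour-free library. Among the wider lists, 6 of 18 muscle genes tested fell in FBMet against FB, Atp2a1 and Tcap among them, and Ryr1 rose, against 16% of all genes lower and 14.4% higher. Of 8 epidermis genes tested there, Sbsn and Tgm1 rose and Perp and Krt77 fell. Apart from Sbsn and Perp these genes were named after their values were seen.

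The regions themselves differed for 2 of the 3 genes, in a comparison added after the data were seen. Acta1 averaged 5.67 ± 1.07 in FB and 2.38 ± 0.516 in HB (SD, n = 4 each), a log2 difference of 0.98 (SE 0.13, limma adjusted p = 1.59e-05). Krt10 averaged 7.61 ± 1.37 in FB and 3.90 ± 0.444 in HB, a log2 difference of 0.80 (SE 0.12, limma adjusted p = 6.21e-05). Krt1 averaged 2.26 ± 0.341 in FB and 2.05 ± 0.263 in HB (limma adjusted p = 0.458). Of all genes 52.8% were called, 20.2% as higher and 32.5% as lower in FB. That split was 3194 higher and 5133 lower, but 4221 and 4037 with median-of-ratios scaling and 3782 and 3712 with voom, and Acta1 and Krt10 stayed higher in FB under both.

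**Figure D5:**
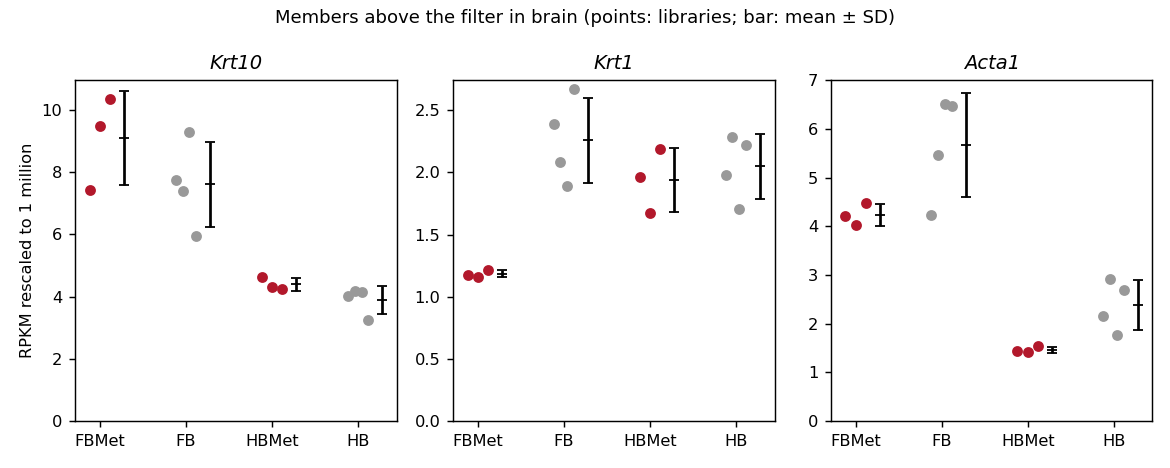
Rescaled RPKM of Krt10, Krt1 and Acta1 in FBMet, FB, HBMet and HB, with 1 point for each library and a bar for the mean ± SD. Krt1 lies at 1.16 to 1.21 in FBMet against 1.89 to 2.67 in FB, and Krt10 and Acta1 are higher in both forebrain groups than in the hindbrain groups.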

How the data were processed

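The authors deposited RPKM for human and for mouse genes of 21 libraries. Reads were mapped to hg38 (GRCh38) and mm10 (GRCm38), per the submitters' processing notes. Neither aligner nor read counter is named: not given in the sources used here. Because RPKM is scaled within 1 organism, a mouse level is a share of mouse RNA, and it says nothing on how much mouse tissue a tumour held.

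RPKM was rescaled to a sum of 1000000 in each library. RPKM steps gave whole reads for 100% of 32644 mouse genes above 0 (within 0.02). Reads served for depths, counting intervals and voom. Exact 95% Poisson intervals and the floor of 3 reads cover counting error only, and reads lack molecular identifiers.

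The members and lists were chosen with earlier results of these data known. Log2(value + 1) of genes at 1 or more in at least 3 libraries was tested with limma 3.58.1 (trend, robust, two-sided, Benjamini-Hochberg over all genes tested) in R 4.3.3, with 10 libraries for SQ against metastases (mean of both regions) and 14 for brain. Code was tested on simulated data. Python 3.11.15, NumPy 2.4.6, pandas 2.3.3, SciPy 1.17.1 and matplotlib 3.10.9 were used.

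Named genes are all 10 members, up to 4 genes of each other list with the highest SQ mean, and the 5 nearest profiles (mean of at least 5, range of at least 1 on the log2 scale) to Krt14, Acta1 and Adipoq. Of 182 genes on 12 other lists, 178 matched exactly 1 row. Replicates with the same number correlated between FBMet and HBMet (residual correlation 0.238 to 0.437, against -0.32 to -0.0397 for other numbers), although the labels do not say that they share an animal. Alternatives were the pseudocount, the filter, scaling, voom, a replicate block and leaving out each library.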

Additional observations from a re-analysis of the deposited data

Results flagged for a closer look

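Dixon's gap ratio was taken on log2(value + 1) in 30 groups of 4 libraries (10 genes in SQ, FB and HB), against the 95% critical value for 4 libraries, and chance flags about 1 in 20 groups. It marked 7 of them. In SQ all 4 keratins were marked, each for SQ Rep 3 as the lowest: the gap took up 0.961 of the range for Krt14, 0.9388 for Krt5, 0.8925 for Krt10 and 0.8905 for Krt1. The 10 genes were chosen for levels that are high and uneven in SQ, so in SQ these ratios restate that choice and are a description, not a test, and the rate expected by chance does not apply to them. The 4 marks also come from 1 library.

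The other 3 marks were in tumour-free brain, and 2 of them rest on 2 reads. Krt14 was marked in FB with a gap ratio of 1, because FB Rep 2 held 2 reads (0.108 rescaled RPKM) and the other FB libraries 0. Plin1 was marked in HB with a gap ratio of 0.8293, just past the critical value, because HB Rep 4 held 2 reads (0.0976) where the other HB libraries held 1. Krt10 was marked in HB with a gap ratio of 0.85, because HB Rep 4 stood at 3.24, against 4.02 to 4.17 in the other HB libraries.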

How the results depend on the processing

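Of 77 counts of genes called, 73 lay within 1.5 times the reported count. SQ against metastases gave 13562 genes, 12909 to 13987 when 1 library was left out. FBMet against FB gave 4793, and 2353 to 4996 when 1 library was left out, the lowest without FBMet Rep 2. HBMet against HB gave 512, and 291 to 804 when 1 library was left out, the lowest without HBMet Rep 2 and the highest without HB Rep 1. FB against HB gave 8327, and 7634 to 8245 when 1 library was left out. The number of genes called in hindbrain is thus uncertain. The only change of direction was Krt1 in HBMet against HB, at -0.11 to 0.016 when 1 library was left out, positive without HBMet Rep 2 and called under none of these. With the replicate number as a block, the counts were 13331, 3753, 473 and 8223 in the same order, and the block changed no call of Krt1, Krt10 or Acta1, nor of their difference between regions. Other numbers were not shown to pair libraries, with same-number correlations of -0.203 to 0.365 between FB, HB and the metastasis groups. Of 164 differences of the 10 genes, SQ minus metastasis, 152 moved by less than 1 SD, and the other 12 were larger, with a pseudocount of 0.1 (up to 9.86 for Ckm) or with voom (up to 13.6 for Krt5). No filter on low values shifted the median of all genes by 0.23. Depth limits the keratins in SQ Rep 3, where 1 Krt5 read equals a level of 0.195, and Adipoq and Plin1, with 13 and 5 reads there.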
